A study of Mus musculus with 201 samples.

Results

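Inward rectifier potassium channels were examined in hippocampal RNA of 100 mouse strains, through every probe set that the array annotation gives to 1 of 7 genes: Kcnj9, Kcnj3, Kcnj6, Kcnj4, Kcnj2, Kcnj10 and Kcnj16. These are 7 of the 18193 genes named by a probe set with 1 symbol, and they hold 18 of the 45037 probe sets tested: 4 for Kcnj9, 4 for Kcnj3, 5 for Kcnj6, 2 for Kcnj16 and 1 each for Kcnj10, Kcnj2 and Kcnj4. All 18 were kept, and 8 of them had a mean score of 8 or more. The others had means of 7.59 to 7.86, at percentiles 26.9 to 49.4 of all probe sets. They were every Kcnj6 probe set, Kcnj2, Kcnj3 1444336_at, Kcnj16 1435094_at, and Kcnj9 1426115_a_at and 1433029_at. Each of the 201 Affymetrix M430 2.0 arrays measured RNA of whole hippocampi from a pool of 1 to 4 mice. The BXD lines (29 earlier strains on 58 arrays, 39 later strains on 76 arrays) are recombinant inbred strains, each a fixed mosaic of C57BL/6J and DBA/2J. The CXB lines (13 strains, 27 arrays) descend in the same way from BALB/cByJ and C57BL/6ByJ. The other arrays held 13 classical inbred strains (27 arrays), the 4 wild-derived strains CAST/EiJ, PWD/PhJ, PWK/PhJ and WSB/EiJ (7 arrays), and the reciprocal hybrids B6D2F1 and D2B6F1 (6 arrays). The classical strains were 129S1/SvImJ, A/J, AKR/J, BALB/cByJ, BALB/cJ, C3H/HeJ, C57BL/6ByJ, C57BL/6J, DBA/2J, KK/HIJ, LG/J, NOD/LtJ and NZO/HlLtJ. Pools were of female or male mice, and 1 BXD9 pool was of mixed sex. The labels name no engineered allele and no treatment, and the mice of a pool were 41 to 196 days old on average (median 62). Some later BXD lines were not yet fully inbred, and dissections could include parts of the subiculum and fimbria, per the labels. The labelled source of the mice was Glenn for most earlier BXD pools and UTM RW for nearly all later ones. It was JAX for nearly all CXB pools and for BALB/cByJ and C57BL/6ByJ, and UTM for BALB/cJ and C57BL/6J. Source was a term of no fit, and its part in the comparisons was not tested.

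Inward rectifiers pass potassium more readily into the cell than out of it and hold neurons and glia near the potassium equilibrium potential. Kcnj3, Kcnj6 and Kcnj9 encode GIRK1, GIRK2 and GIRK3, subunits of channels that G protein beta-gamma dimers open after a receptor such as the GABA-B receptor is activated, which slows hippocampal neurons. Kcnj2 and Kcnj4 encode strongly rectifying channels that are open at rest. Kcnj10 encodes the main inward rectifier of astrocytes, which takes up potassium around synapses, and the Kcnj16 subunit assembles with it. In the RefSeq gene order Kcnj9 lies between Igsf8 and Kcnj10 on chromosome 1, and Kcnj16 is next to Kcnj2.

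Because Kcnj9 and its neighbour Kcnj10 varied together over the strains, the 250 bases before each start site are shown from RefSeq (GRCm38.p6), with motif matches in capitals. The motifs searched on both strands were the GC box GGGCGG, the CCAAT box CCAAT, the TATA box TATAAA, the E-box CACGTG and the cAMP response element TGACGTCA. The Kcnj9 stretch is chr1:172329323-172329572 on the minus strand, and the Kcnj10 stretch is chr1:172340960-172341209 on the plus strand.
Kcnj9: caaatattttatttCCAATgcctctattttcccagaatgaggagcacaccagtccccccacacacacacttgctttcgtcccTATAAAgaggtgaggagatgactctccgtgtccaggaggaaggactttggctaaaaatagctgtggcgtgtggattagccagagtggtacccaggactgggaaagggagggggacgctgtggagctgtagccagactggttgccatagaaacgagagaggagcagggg
Kcnj10: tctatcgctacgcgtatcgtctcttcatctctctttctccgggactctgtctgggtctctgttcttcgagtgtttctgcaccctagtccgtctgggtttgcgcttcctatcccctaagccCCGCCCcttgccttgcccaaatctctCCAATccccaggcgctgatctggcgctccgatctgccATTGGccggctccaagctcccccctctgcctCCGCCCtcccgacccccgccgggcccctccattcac
The Kcnj9 stretch held 1 match to the CCAAT box and 1 to the TATA box. The Kcnj10 stretch held 2 matches to the GC box and 2 to the CCAAT box. These are matches of letters at any position of the stretch, and whether they act in either promoter was not tested. Of all 32851 stretches of the same length, 32.7% held the GC box, 33.8% the CCAAT box, 12.4% the TATA box, 6.02% the E-box and 1.55% the cAMP response element. The GC content was 52% before Kcnj9 and 62% before Kcnj10.

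All values are PDNN scores, a summary of the probe signals that behaves like a logarithm of unknown base, so differences are given in PDNN units and not as folds. Present calls covered 43.3 to 55.3% of an array's probe sets. For 7 arrays the header of the file and the label differed: in strain for D2B6F1 replicate 1 and both BXD14 arrays, in strain and sex for PWD/PhJ replicate 1, in sex for BXD9 replicate 2 and KK/HIJ replicate 2, and in batch for BXD13 replicate 2. The labels were used. Without these 7 arrays the same number of members passed the test in each comparison reported. Markers of astrocytes and of myelin were strongly detected on all arrays, with list means of at least 9.56 and 9.26. Most strains had 1 female and 1 male pool, which are different mice. The 2 DBA/2J arrays were both female, but of pools of 2 and 3 mice from different labelled sources, so these too are different mice. For the 2 KK/HIJ arrays, labelled with the same sex, age, pool size and source, the labels do not settle it. The p-values measure the spread between pools. In whole hippocampus, a change in the number of cells of a type and a change in RNA per cell cannot be told apart. Probe sequences were not examined, so whether each score difference is one of RNA amount was not tested.

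Kcnj9 scores differed between the parents of the BXD panel, and the probe sets that passed did so in opposite directions. Probe set 1450712_at, the Kcnj9 probe set with the highest mean, gave 8.91 and 8.80 in the DBA/2J arrays and 8.22, 8.09 and 8.30 in the C57BL/6J arrays. The strains did not overlap, with DBA/2J high. The fitted difference was 0.63 ± 0.12 units (SE, adjusted p = 8.6e-05 in limma). Probe set 1428602_at gave 8.28 and 8.39 in DBA/2J and 8.62, 8.56 and 8.68 in C57BL/6J, so here DBA/2J was low. Its fitted difference was -0.34 ± 0.07 units (SE, limma adjusted p = 0.000765). The 2 other Kcnj9 probe sets did not pass the test, at 0.21 ± 0.14 units (SE) for 1426115_a_at and 0.09 ± 0.08 (SE) for 1433029_at. In batch 5, the only batch that held both parents, 1 array each gave a difference of 0.50 units for 1450712_at and -0.29 for 1428602_at.

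The score of 1450712_at minus that of 1428602_at summarises this opposition within an array, where the zero point has no meaning of its own. Since 1428602_at was paired for its opposite difference between the parents, the parental values describe that choice and support nothing further. It was 0.63 and 0.41 units in the DBA/2J arrays and -0.41, -0.47 and -0.37 in the C57BL/6J arrays. The means differed by 0.94 units with no overlap (two-sided exact permutation test, p = 0.1, the smallest that 2 against 3 arrays can give). Over the inbred strains, C57BL/6ByJ (-0.30 and -0.35) and CAST/EiJ (-0.74) lay on the C57BL/6J side of a gap, and no array of another inbred strain was below 0.24. In the BXD panel the strain means ran from -0.47 in BXD51 to 0.54 in BXD99 with a median of -0.11, and 37 strains lay below the midpoint of the parents and 31 above.

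Among the other genes, Kcnj10 was higher in DBA/2J. It gave 9.20 and 9.53 in the DBA/2J arrays and 8.96, 9.15 and 8.96 in C57BL/6J. The strains did not overlap, although the lower DBA/2J array lay close to the highest C57BL/6J array. The difference was 0.37 ± 0.09 units (SE, limma adjusted p = 0.00414), and it fell to 0.25 units with an adjusted p of 0.28 (limma) without DBA/2J replicate 2. With the spread taken from inbred strains and F1 hybrids alone, it was 0.43 units and did not pass (limma adjusted p = 0.12). In total 3 of the 18 probe sets passed in this comparison, 2 higher and 1 lower, against 7.24% of all probe sets (4.61% higher, 2.63% lower). The median difference of the 18 was 0.03 units, beside -0.02 over all probe sets. The GIRK partners Kcnj3 and Kcnj6 did not pass the test on any of their 9 probe sets, whose differences ran from -0.12 to 0.08 units. Every Kcnj6 probe set and Kcnj3 1444336_at had a mean score below 8, and the part of low signal was not tested. Kcnj16 1435094_at gave 0.18 ± 0.07 units (SE, limma adjusted p = 0.10) and Kcnj2 0.15 ± 0.07 (SE, limma adjusted p = 0.18).

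Cell type markers did not all match between the parents. Of the 9 myelin markers measured, 8 were lower in DBA/2J, with array means of 9.29 to 9.41 against 9.67 to 10.2 in C57BL/6J. Of the 10 astrocyte markers, 1 was higher and 1 lower, with array means of 9.71 to 9.72 and 9.67 to 9.90. With the astrocyte mean as a covariate Kcnj10 differed by 0.43 ± 0.08 units (SE, limma adjusted p = 1.95e-05), and the part of the myelin markers in these results was not tested. When 4 principal components, computed from array differences within BXD strains, entered the fit, a setting chosen after seeing the data, Kcnj10 no longer passed (0.17 units, limma adjusted p = 0.31) and neither did Kcnj9 1428602_at (-0.19 units, limma adjusted p = 0.17), while 1450712_at stayed called at 0.53 units.

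**Figure D1:**
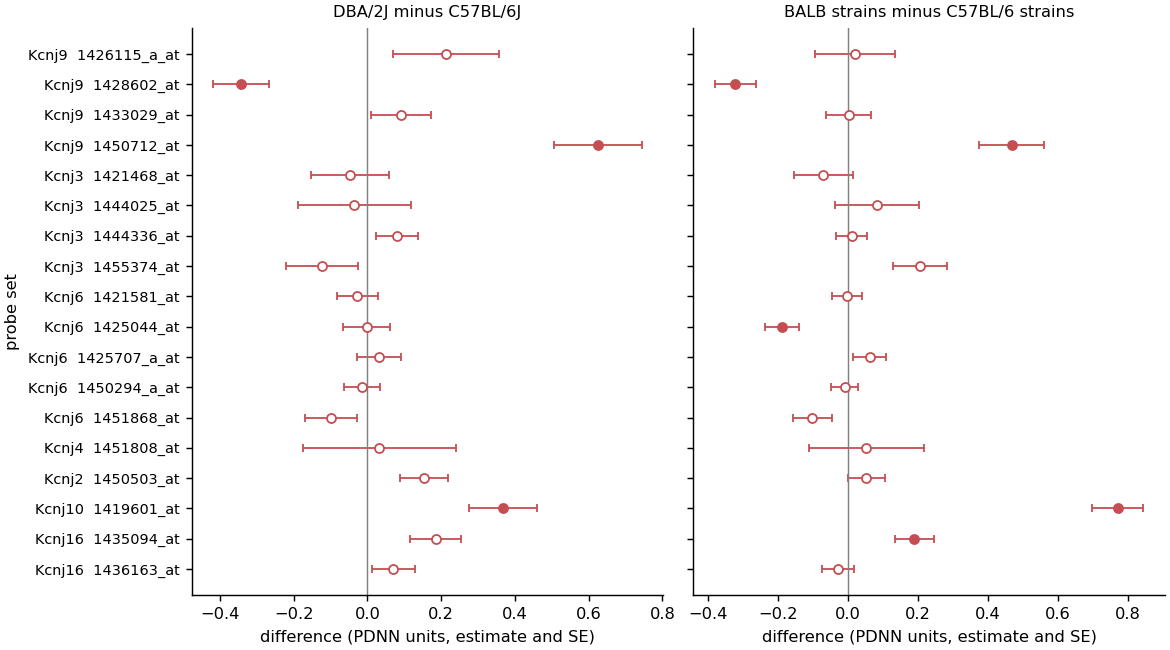
Fitted differences in PDNN units with their SE for the 18 probe sets, DBA/2J minus C57BL/6J on the left and BALB strains minus C57BL/6 strains on the right, with filled points for probe sets that passed an adjusted p of 0.05. Kcnj9 1450712_at and 1428602_at lie on opposite sides of 0 in both panels, and Kcnj10 lies at 0.37 and 0.77 units.

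The BALB and C57BL/6 backgrounds, from which the CXB lines were made, also differed in Kcnj9 and Kcnj10. This comparison shares its C57BL/6J arrays with the one above. Kcnj10 gave 9.90, 9.59 and 9.75 in BALB/cJ and 9.64 in the 1 BALB/cByJ array, against 8.96 to 9.15 in C57BL/6J and 9.08 and 8.66 in C57BL/6ByJ. Every BALB array was above every C57BL/6 array, and the difference was 0.77 ± 0.07 units (SE, limma adjusted p = 8.7e-15). RNA quality also differed: the actin 3'/5' ratio was 1.26 to 3.30 in BALB/cJ (median 3.10), 1.13 in BALB/cByJ and 1.14 to 1.75 in the C57BL/6 arrays, and 2 BALB/cJ arrays had RMA outlier shares of 0.12 and 0.10. Without arrays of such outlier shares Kcnj10 differed by 0.80 ± 0.07 units (SE); the part of the actin ratio was not tested. Kcnj9 1450712_at gave 8.82, 8.61 and 8.49 in BALB/cJ, 8.72 in BALB/cByJ and 8.21 and 8.28 in C57BL/6ByJ, a difference of 0.47 ± 0.09 units (SE, limma adjusted p = 0.00024). Kcnj9 1428602_at ran the other way, at 8.22 to 8.29 in BALB/cJ, 8.35 in BALB/cByJ and 8.51 and 8.63 in C57BL/6ByJ, a difference of -0.32 ± 0.06 units (SE, limma adjusted p = 5.24e-05). For both Kcnj9 probe sets the BALB and C57BL/6 arrays did not overlap.

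Further members passed between these backgrounds, for 5 of 18 in all (3 higher, 2 lower) against 5.12% of all probe sets (3.00% higher, 2.12% lower). Kcnj6 1425044_at, a GIRK2 probe set, gave 7.72, 7.71 and 7.82 in BALB/cJ and 7.71 in BALB/cByJ, against 7.88, 7.75 and 7.95 in C57BL/6J and 7.86 and 8.00 in C57BL/6ByJ. The backgrounds overlapped through 1 array on each side, and it was lower in the BALB strains by -0.19 ± 0.05 units (SE, limma adjusted p = 0.0097). Kcnj16 1435094_at gave 8.18, 7.87 and 8.12 in BALB/cJ and 7.77 in BALB/cByJ, against 7.76, 7.70 and 7.75 in C57BL/6J and 7.68 and 7.72 in C57BL/6ByJ. Every BALB array was higher, BALB/cByJ by little, and it was higher by 0.19 ± 0.06 units (SE, limma adjusted p = 0.0255). The second Kcnj16 probe set, 1436163_at, gave -0.03 ± 0.05 units (SE), and the 4 other Kcnj6 probe sets gave -0.10 to 0.06 units. Of the 10 astrocyte markers, 1 was higher in the BALB strains, with array means of 9.83 to 9.98 against 9.67 to 9.90 in the C57BL/6 strains. With their mean as a covariate the Kcnj6 call (-0.12 units, limma adjusted p = 0.16) and the Kcnj16 call (0.13 units, limma adjusted p = 0.24) were lost, and Kcnj10 kept 0.64 units. Both calls were also lost without C57BL/6ByJ replicate 2 (limma adjusted p = 0.067 and 0.093), which left 3 of 18. The Kcnj6 call was lost without C57BL/6J replicate 3 (limma adjusted p = 0.063), and the Kcnj16 call without BALB/cJ replicate 1 (0.13) or C57BL/6ByJ replicate 1 (0.052). Kcnj6 was lost as well with no batch term (0.082), without the outlier arrays (0.12) and with MAS5 scores (0.16), and Kcnj16 with the spread taken from inbred strains and F1 hybrids alone (0.20) and with MAS5 scores (0.084).

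The substrains C57BL/6J and C57BL/6ByJ, the C57BL/6 parents of the 2 panels, showed no called member. In limma 0 of 18 passed, beside 0.0799% of all probe sets. An unadjusted p under 0.05 was found for 0 of 18, beside 3090 of all 45037. Kcnj9 1450712_at differed by -0.02 ± 0.12 units (SE) and Kcnj10 by 0.12 ± 0.09 (SE). The widest member difference was 0.24 units, for Kcnj3 1444025_at.

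Over the BXD strains 5 of 18 probe sets had a strain effect, against 6.95% of all probe sets: Kcnj9 1450712_at and 1428602_at, Kcnj10, and Kcnj3 1455374_at and 1444336_at. Kcnj9 1450712_at ran from 8.09 in BXD51 to 8.96 in BXD99 with a median of 8.46. Of the 68 strain means, 59 lay between the parental means of 8.20 and 8.86, 5 below and 4 above. The widest gap between neighbouring strain means, from 8.49 to 8.58, left 36 strains below it and 32 above. The intraclass correlation, the share of the variation that lies between strains, was 0.72 (limma adjusted p of the strain effect = 6.22e-14), beside a median of 0.13 over all probe sets.

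Kcnj9 1428602_at ran from 8.21 in BXD98 to 8.83 in BXD45, with a median of 8.47, an intraclass correlation of 0.66 and a strain effect at adjusted p = 1.58e-09 (limma). With MAS5 scores this probe set kept its inbred strain effect but lost 4 other calls: the limma adjusted p was 1.0 for the BXD strain effect, 0.93 in the CXB panel, 0.073 between DBA/2J and C57BL/6J and 0.079 between the BALB and C57BL/6 strains. Kcnj10 ran from 8.97 in BXD94 to 9.47 in BXD8 with a median of 9.19. Its intraclass correlation was 0.68 (limma adjusted p = 4.33e-07), and 48 of 68 strain means lay between the parental means of 9.02 and 9.36. The median SD between arrays of a strain was 0.10 units for Kcnj9 1450712_at, 0.06 for 1428602_at and 0.08 for Kcnj10, below the SDs of 0.23, 0.13 and 0.14 between strain means.

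**Figure D2:**
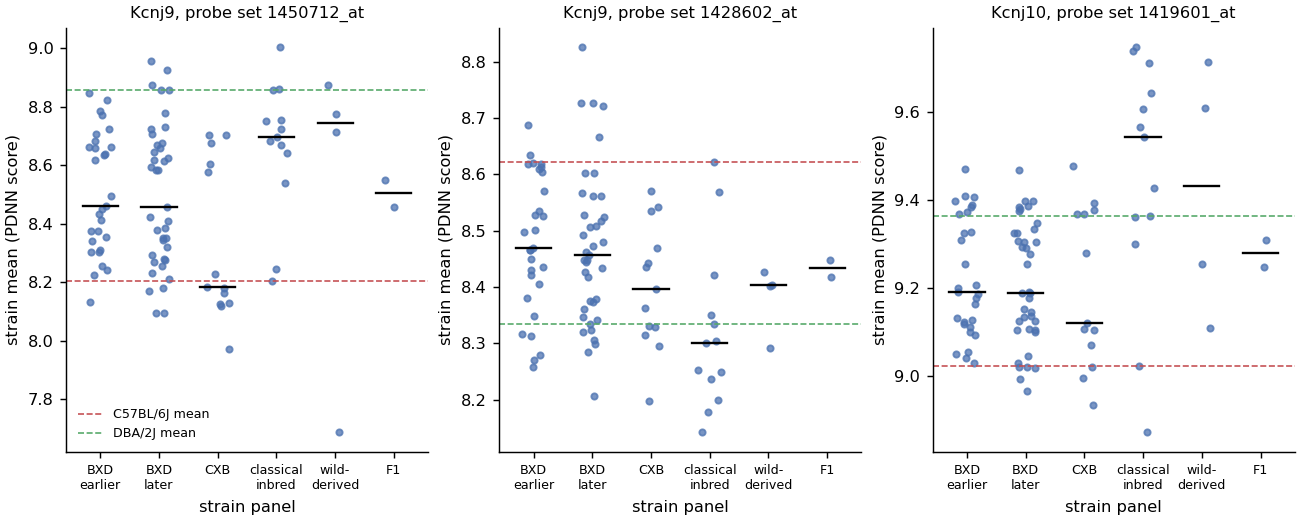
Strain means in PDNN scores by panel for Kcnj9 1450712_at, Kcnj9 1428602_at and Kcnj10, with 1 point per strain, black bars for medians and dashed lines for the C57BL/6J and DBA/2J means. For Kcnj9 1450712_at the 13 CXB strains fall into 8 at 7.97 to 8.23 and 5 at 8.58 to 8.70, and 59 of 68 BXD strains lie between the parents.

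The CXB lines gave a strain effect for 3 of 18 probe sets, against 4.20% of all: Kcnj9 1450712_at (limma adjusted p = 3.89e-09), Kcnj9 1428602_at (0.00112) and Kcnj10 (5.65e-07). For Kcnj9 1450712_at 8 strains had means of 7.97 to 8.23 and 5 strains, CXB1, CXB3, CXB6, CXB7 and CXB13, had means of 8.58 to 8.70, with no strain between. The same 5 strains gave the highest Kcnj10 means, 9.37 to 9.48, where the others reached at most 9.28. The widest Kcnj10 gap was a different one, from 9.12 to 9.28, with 7 strains below it. The 5 strains also gave the 5 lowest means on 1428602_at. No correlation is given for these probe sets because the strain values fell into separate clusters. Fitted on the CXB arrays alone, 1428602_at no longer passed (limma adjusted p = 0.14).

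Kcnj9 probe set 1450712_at and Kcnj10 rose and fell together over the BXD strains. Over 68 strain values adjusted for sex and batch, Kcnj9 1450712_at and Kcnj10 correlated at r = 0.78 (rho = 0.74, permutation p = 1.0e-05 for both, the smallest that 100000 resamples can give, adjusted p = 6.25e-05 over 50 pairs). It was 0.78 without the 2 strains farthest from the median. The correlation was 0.78 in the earlier and 0.79 in the later lines, and 0.52 to 0.83 within the 7 batches, which held 12 to 30 BXD strains each. Kcnj9 1428602_at correlated negatively with Kcnj10 (r = -0.59, rho = -0.59) and with 1450712_at (r = -0.41, rho = -0.42, permutation p = 0.00071 and 0.00046, adjusted p = 0.00394 and 0.00235). With MAS5 scores neither passed: r was -0.14 (rho -0.05) with Kcnj10 and 0.0063 (rho 0.10) with 1450712_at, while 1450712_at and Kcnj10 kept r = 0.65. The PDNN correlation of the Kcnj9 pair ran from -0.53 to -0.07 within batches, with -0.60 in the earlier and -0.30 in the later lines. The strain values share arrays and batches, and 4 of the strains (BXD48a, BXD65a, BXD65b and BXD73a) are sister lines of others. Without these 4, chosen after seeing the data, r was 0.78 for 1450712_at and Kcnj10, -0.59 for 1428602_at and Kcnj10, and -0.40 for the Kcnj9 pair over 64 strains.

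**Figure D3:**
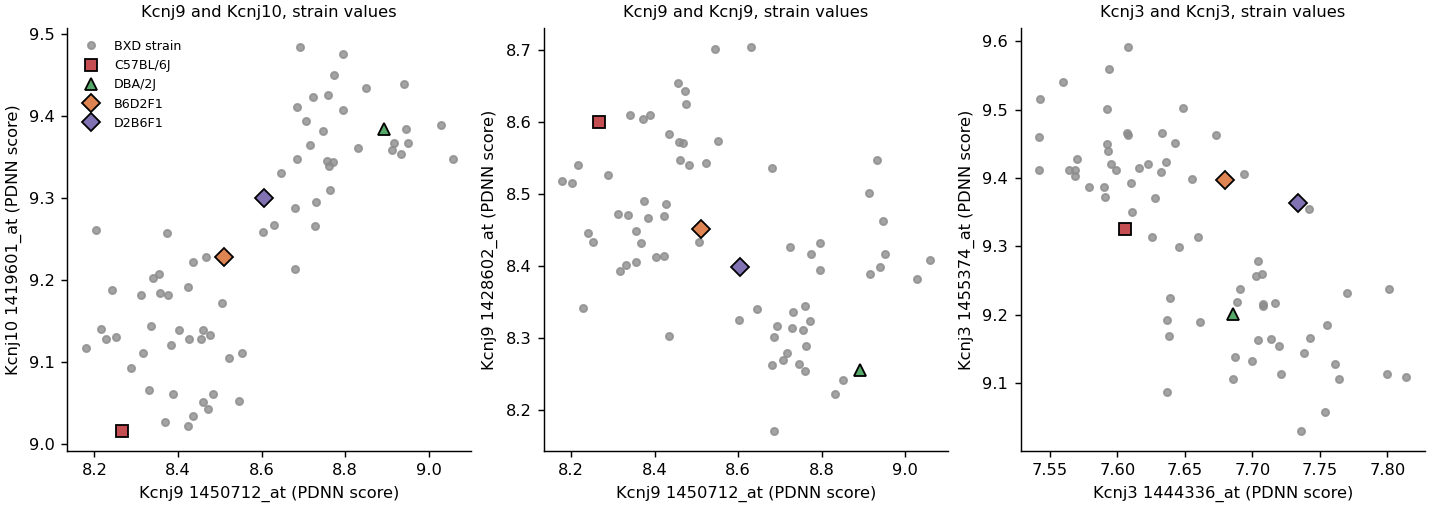
Strain values adjusted for sex and batch (PDNN scores) for Kcnj9 1450712_at against Kcnj10, Kcnj9 1450712_at against Kcnj9 1428602_at, and Kcnj3 1444336_at against Kcnj3 1455374_at, with grey points for 68 BXD strains and coloured symbols for the parents and F1 hybrids. The 3 relations have r = 0.78, -0.41 and -0.76.

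The genes most like Kcnj9 over the BXD strains were mostly its neighbours, by Pearson's r over the 68 strain values, given as a description. For 1450712_at the 5 highest were Kcnj10 (0.78), Vangl2 (0.76), Cadm3 (0.75), Cnih4 (0.70) and Sdhc (0.69), and the 5 lowest were Mndal (-0.82), Pex19 (-0.80), Plekhb2 (-0.78), Nit1 (-0.78) and Adamts4 (-0.75). For 1428602_at the 5 highest were Atf4 (0.76), Ackr1 (0.74), Dcaf8 (0.74), Tomm40l (0.71) and Pex19 (0.69), and the 5 lowest were Vangl2 (-0.62), Kcnj10 (-0.59), Cks2 (-0.54), Sdhc (-0.54) and Trp73 (-0.53). Of the 16 different genes, 13 lie on the chromosome of Kcnj9, where 5.93% of the array's genes lie, and Atf4, Cks2 and Trp73 do not. Plekhb2 lies 883 protein-coding genes away from Kcnj9, and the other 12 lie within 99. Of 34 measured genes around Kcnj9, each through its probe set with the highest mean, 9 had a BXD strain effect (6.95% of all probe sets). Between the parents 5 differed (7.24% of all), each lower in DBA/2J (2.63% of all). Among them were Igsf8 (-0.52 ± 0.15 units, SE, limma adjusted p = 0.013) and Ncstn, a gamma-secretase subunit (-0.29 ± 0.08 units, SE, limma adjusted p = 0.0137). The shares were not computed for such probe sets alone.

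Other genes of the channel pathway, each taken through its probe set with the highest mean, were set beside the share over all probe sets. This share was 6.95% for the BXD strain effect and 43.5% for the inbred strain effect. It was 7.24% between the BXD parents and 5.12% between the BALB and C57BL/6 strains. No share was computed over the brightest probe set of every gene, so counts and shares rest on unlike sets. Of 21 genes that couple receptors to GIRK channels (G protein subunits, RGS proteins and trafficking partners), 3 had a BXD strain effect (Gnb1, Gng4 and Rgs8) and 16 an inbred strain effect. Between the parents Rgs7bp (0.74 ± 0.19 units, SE, limma adjusted p = 0.0048) and Rgs7 (0.31 ± 0.09, SE, limma adjusted p = 0.021), whose proteins speed the closing of GIRK channels, were higher in DBA/2J, and Rgs8 was lower (-0.32 ± 0.07, SE, limma adjusted p = 0.0021). Of 12 measured receptors that open these channels, Gabbr1, a GABA-B receptor subunit, was lower in DBA/2J (-0.32 ± 0.09 units, SE, limma adjusted p = 0.0086) and had a BXD strain effect, as did Oprl1. Over the inbred strains 7 of the 12 receptors had a strain effect. Of 10 further channel family genes, Kcnj11 and Kcnj13 had a BXD strain effect, and Kcnj11 was lower in DBA/2J (-0.29 ± 0.08 units, SE, limma adjusted p = 0.011). Of the 9 choroid plexus markers measured, 8 had a BXD strain effect as well. The part of choroid plexus in the Kcnj11 and Kcnj13 calls was not tested. In the BALB strains 3 of the 21 coupling genes were higher (Gnai2 by 0.24, Rgs7bp by 0.65 and Rgs8 by 0.20 units), 0 of the 12 receptors passed, and Kcnj11 was lower (-0.21 units). The median differences between the DBA/2J and C57BL/6J parents were 0.02 units for the coupling genes, 0.01 for the receptors and -0.04 for the channel family, beside -0.02 over all probe sets.

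Kcnj3, the GIRK1 subunit, varied among the BXD lines on probe sets that did not pass the test between the parents. Kcnj3 1455374_at gave 9.37, 9.50 and 9.24 in C57BL/6J and 9.35 and 9.21 in DBA/2J, which overlap. The BXD means ran from 9.01 in BXD40 to 9.62 in BXD79 with a median of 9.35, and 29 strains lay below both parents, 9 between and 30 above. Its intraclass correlation was 0.62 (limma adjusted p = 1.72e-06). Kcnj3 1444336_at, a probe set of low mean score (7.67, percentile 34.6), ran from 7.56 to 7.85 (intraclass correlation 0.52, limma adjusted p = 0.000792). The 2 probe sets went opposite ways, with r = -0.76 and rho = -0.75 over the strains (permutation p = 1.0e-05 for both, adjusted p = 6.25e-05 and 8.33e-05), and -0.82 to -0.42 within batches. With MAS5 scores the correlation was -0.54. The strain effect of 1455374_at was lost with RMA scores, and that of 1444336_at with MAS5 scores (limma adjusted p = 1 and 0.30).

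In the CXB lines neither Kcnj3 probe set had a strain effect, and 1455374_at ran from 9.17 to 9.42. Kcnj3 1444025_at did not vary between BXD lines (8.95 to 9.31, intraclass correlation -0.21), but differed among the inbred strains. It gave 7.94 in the 1 CAST/EiJ array, 8.51 and 8.24 in PWK/PhJ, 8.78 and 8.72 in PWD/PhJ and 9.25 and 9.11 in WSB/EiJ. The classical strain means ran from 8.80 to 9.39, so CAST/EiJ, PWK/PhJ and PWD/PhJ lay below all of them and WSB/EiJ lay among them.

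The inbred strains gave a strain effect for 9 of 18 probe sets, against 43.5% of all, so that the members' share was close to the background. They were Kcnj9 1450712_at and 1428602_at, Kcnj10, Kcnj3 1444025_at, 1444336_at and 1455374_at, Kcnj6 1425044_at and both Kcnj16 probe sets. Kcnj9 1450712_at was lowest in CAST/EiJ (7.69, 1 array), then C57BL/6J (8.20) and C57BL/6ByJ (8.25), and all other strain means lay between 8.54 in AKR/J and 9.00 in KK/HIJ. The 2 KK/HIJ arrays gave 8.95 and 9.06, while most neighbouring strains in between overlapped. On 1428602_at the 2 C57BL/6 strains had the highest means, 8.62 and 8.57, and AKR/J the lowest, 8.14.

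Kcnj10 was lowest in C57BL/6ByJ (8.87), C57BL/6J (9.02) and CAST/EiJ (9.11) and highest in BALB/cJ (9.75) and NOD/LtJ (9.74), whose arrays overlap. The AKR/J arrays were far apart, at 9.58 and 9.02. Kcnj16 1435094_at was lowest in AKR/J (7.33 and 7.47) and LG/J (7.47 and 7.50) and highest in BALB/cJ (8.18, 7.87 and 8.12), and Kcnj16 1436163_at was also lowest in LG/J (7.86 and 7.85) and AKR/J (7.82 and 7.95). Kcnj6 1425044_at ran from 7.63 in NZO/HlLtJ to 7.93 in C57BL/6ByJ. A labelled RMA outlier share of 0.1 or more was found in 8 of 27 classical and 3 of 7 wild-derived arrays, CAST/EiJ among them. Without such arrays the Kcnj3 calls on 1444025_at (limma adjusted p = 0.15) and 1455374_at (0.45) were lost, and that on 1455374_at was lost without the CAST/EiJ array too (0.059).

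**Figure D4:**
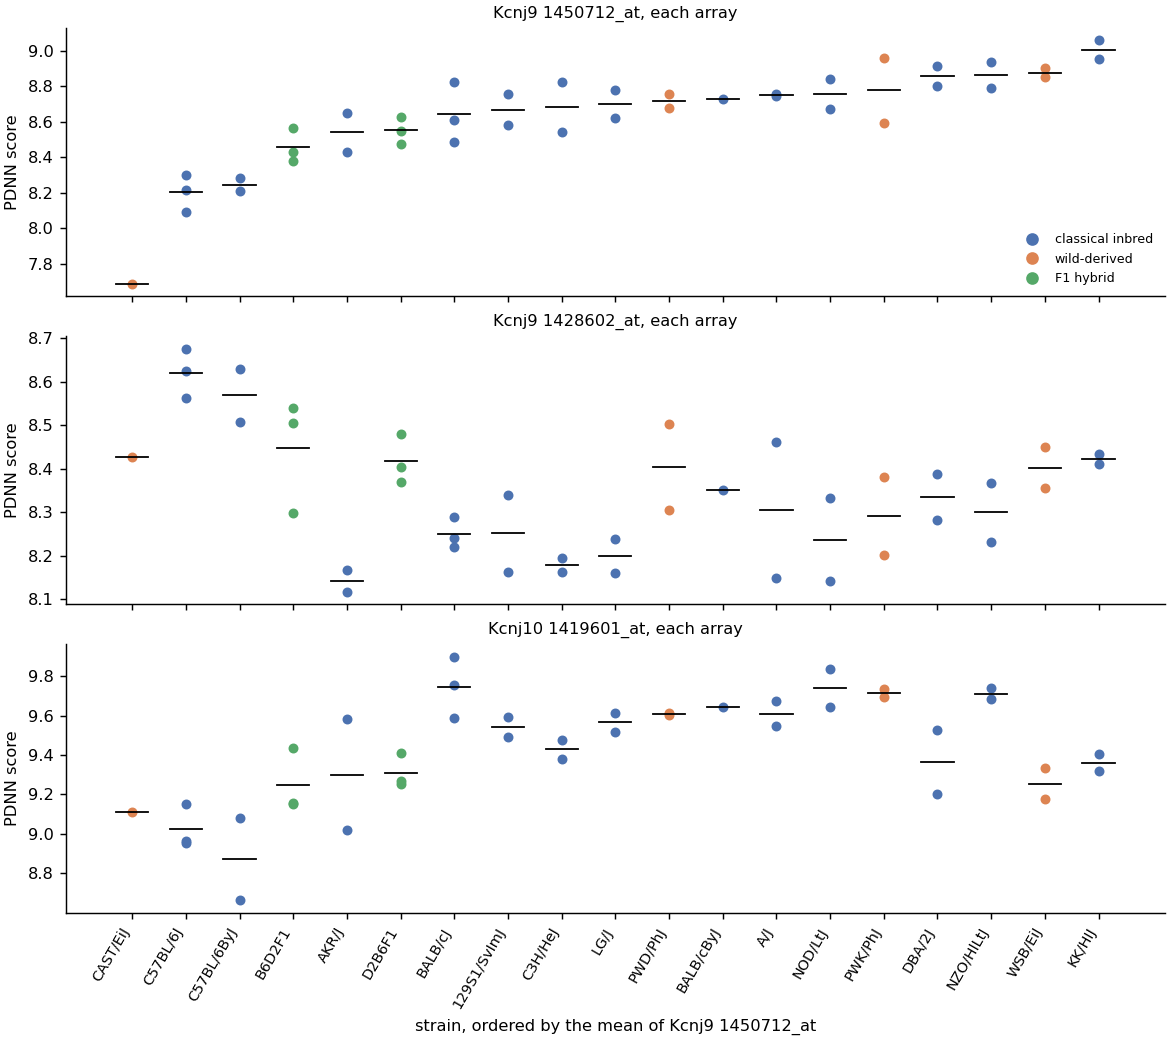
Each array's PDNN score for Kcnj9 1450712_at, Kcnj9 1428602_at and Kcnj10 in the classical inbred, wild-derived and F1 strains, ordered by the mean of Kcnj9 1450712_at, with black bars for strain means. CAST/EiJ, C57BL/6J and C57BL/6ByJ are at the low end for Kcnj9 1450712_at, and the 2 C57BL/6 strains are at the high end for 1428602_at.

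Compared as sets, with strains as the replicates, the 4 wild-derived strains gave no called difference from the 13 classical strains on any member. In limma 0 of 18 passed, beside 3.90% of all probe sets. An unadjusted p under 0.05 was found for 6 of 18, beside 12129 of all 45037. Kcnj3 1444025_at came closest, at -0.45 ± 0.13 units (SE, limma adjusted p = 0.063). Without WSB/EiJ 2 members passed, Kcnj3 1444025_at (-0.66 units, limma adjusted p = 0.00124) and Kcnj3 1444336_at (-0.17, limma adjusted p = 0.040). When each strain was left out in turn, 245 to 4160 of all 45037 probe sets passed, so the background moved widely too. Kcnj9 1450712_at differed by -0.16 ± 0.18 units (SE), with CAST/EiJ at 7.69 and the 3 other wild-derived strains at 8.72 to 8.88. Kcnj16 gave 0.19 ± 0.09 and 0.13 ± 0.06 units (SE) on its probe sets, with limma adjusted p of 0.18 and 0.15. The actin 3'/5' ratio, a measure of RNA quality from the labels, had medians of 2.32 in the wild-derived and 1.67 in the classical arrays, and 2 of 10 astrocyte markers were lower in the wild-derived strains. The part of either in these values was not tested, and the call with the astrocyte mean as a covariate was 0 of 18 as well.

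The F1 hybrids lay near the middle of their parents. Kcnj9 1450712_at gave 8.38, 8.56 and 8.43 in B6D2F1 and 8.63, 8.48 and 8.55 in D2B6F1, between the parents without overlap with either. Their fitted departure from the mid-parent value was -0.02 ± 0.08 units (SE). Kcnj9 1428602_at departed by -0.002 ± 0.053 units (SE) and Kcnj10 by 0.06 ± 0.06 (SE). None of the 18 probe sets passed in limma, beside 0% of all probe sets. At an unadjusted p under 0.05 there were 0 of 18, beside 1505 of all 45037. Between the reciprocal hybrids 0 of 18 passed, beside 0.00444% of all, and Kcnj9 1450712_at differed by 0.09 ± 0.12 units (SE). Here 0 of 18 had an unadjusted p under 0.05 (limma), beside 1081 of all 45037.

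Sex, age and the round in which a BXD line was made left the members without a call. Males minus females ran from -0.04 to 0.01 units over the 18 probe sets, with 0 called in limma, beside 0.118% of all. At an unadjusted p under 0.05 there were 0 of 18, beside 1871 of all 45037 probe sets. The sex difference did not pass a test for differing between panels on any member (0 of 18, 0.00222% of all). Here 1 of 18 had an unadjusted p under 0.05 (limma), beside 2381 of all 45037 probe sets. The slope per 10 days of mean pool age gave 0 of 18 called (0.00888% of all), with Kcnj3 1455374_at steepest at -0.02 ± 0.01 units (SE). For this slope 1 of 18 had an unadjusted p under 0.05 (limma), beside 2666 of all 45037 probe sets. Later against earlier BXD lines gave 0 of 18 called (0.622% of all). An unadjusted p under 0.05 (limma) was found for 2 of 18 and for 4396 of all 45037 probe sets. The 2 were the Kcnj16 probe sets, which differed by -0.03 ± 0.01 and -0.04 ± 0.01 units (SE).

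Kcnj2, Kcnj4 and Kcnj6 had no strain effect in the BXD or CXB panel. The Kcnj2 and Kcnj6 probe sets had low mean scores of 7.59 to 7.86, at percentiles 26.9 to 49.4 of all. The part of low signal in their values was not tested. In the BXD panel Kcnj2 ran from 7.58 to 7.84 with an intraclass correlation of 0.22, and the 5 Kcnj6 probe sets had intraclass correlations of -0.10 to 0.23. Kcnj4 ran from 7.70 in BXD55, which had 1 array, to 8.62 in BXD87. Its intraclass correlation was 0.22, and arrays of a strain had a median SD of 0.14 units. Probe sets of 1 gene went together for Kcnj16 (r = 0.70, rho = 0.59) and for Kcnj6 1425044_at and 1451868_at (r = 0.72, rho = 0.72), each with a permutation p of 1.0e-05 and adjusted p of at most 8.33e-05. With MAS5 scores these were 0.20 and 0.18 and did not pass. Kcnj6 1425707_a_at went with Kcnj2 (r = 0.58, rho = 0.53, permutation p = 1.0e-05 and 3.0e-05, adjusted p = 6.25e-05 and 0.000214), which turned to r = -0.23 with MAS5 scores and did not pass there. Of the 50 pairs of probe sets compared, 15 passed after adjustment, 9 positive and 6 negative, and 3 passed with MAS5 scores. No such share was computed for pairs of other probe sets, so these counts have no background beside them.

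**Figure D5:**
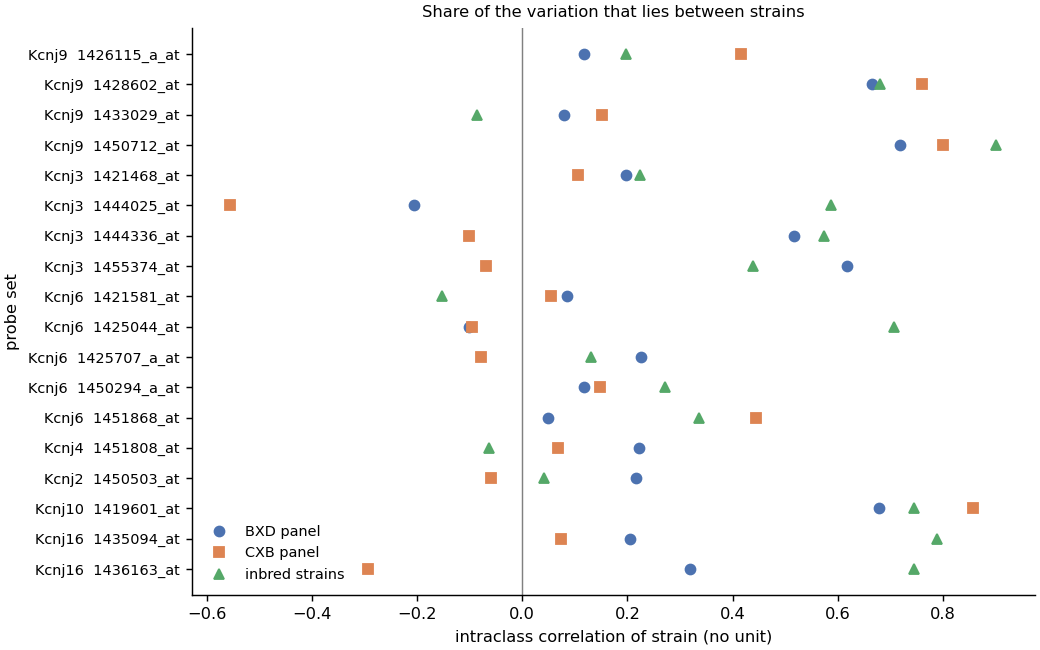
Intraclass correlation of strain for the 18 probe sets in the BXD panel, the CXB panel and the inbred strains (no unit, values below 0 occur where arrays of a strain differ as much as strains do). Kcnj9 1450712_at lies at 0.72, 0.80 and 0.90, and Kcnj10 at 0.68, 0.86 and 0.75.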

How the data were processed

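Hippocampal RNA pools were measured on Affymetrix arrays. The deposited values are a score per probe set and array, made by the authors with PDNN (used here) and with RMA and MAS5 (used as alternatives). The array number limits the precision, since arrays have no counting depth. The labels name a PDNN mean of 8 per array, and the arrays had means of 8.06 to 8.10. The authors' software version was not given in the sources used here. Groups are the strain labels. A model of strain, sex and batch was fitted to 45037 probe sets with limma 3.58.1 in R 4.3.3 (data.table version 1.17.8) over 199 columns. The mixed-sex array BXD9 replicate 2 was left out of the fit and a B6D2F1 technical duplicate was averaged with its partner. Sets of strains were compared between strain values. Tests were two-sided, with Benjamini-Hochberg adjustment over all probe sets and a threshold of 0.05. Correlations used 100000 permutations. Strain means quoted are plain array means. The models were tested on simulated data.

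Members are all probe sets annotated to the 7 genes with 1 symbol. A gene that needed 1 probe set was represented by that with the highest mean, and Kcnj9 also by the one with the largest opposite parental difference. Shares over all probe sets, also those beside the lists, were not restricted in this way. The genes most like Kcnj9 are the 5 highest and 5 lowest by r. The members and lists were chosen with earlier results of these data known. Other marker lists that were measured, beside 6.95% of all probe sets with a BXD strain effect, held dentate granule neurons (4 of 8 with a BXD strain effect), pyramidal neurons (3 of 8), interneurons (2 of 8), thalamus (1 of 8), choroid plexus (8 of 9), endothelium and pericytes (3 of 7), microglia (3 of 8), myelin (3 of 9) and astrocytes (2 of 10).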

Additional observations from a re-analysis of the deposited data

Results flagged for a closer look

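CAST/EiJ stood far from the 3 other wild-derived strains on Kcnj9 1450712_at, with 7.69 in its only array against strain means of 8.72 to 8.88. The gap took 0.86 of the range of the 4 strains, above Dixon's critical value for 4 values. On Kcnj9 1428602_at the same array gave 8.43, within the range of the classical strains, and on Kcnj10 it gave 9.11. This array had a labelled RMA outlier share of 0.14, present calls for 45.5% of probe sets and an actin 3'/5' ratio of 2.74.

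WSB/EiJ stood apart on another Kcnj9 probe set, 1426115_a_at, with a mean of 7.91 against 7.50 to 7.55 in the 3 others, a gap of 0.87 of the range. Of 18 probe sets examined in this way 2 stood out, and chance alone singles out about 1 in 20. No member differed between panels in its sex difference.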

How the results depend on the processing

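Of 720 recomputed values for single probe sets, 683 kept their direction and side of the threshold, and 2 reversed, both with RMA scores of DBA/2J against C57BL/6J: Kcnj9 1428602_at at 0.0013 (limma adjusted p = 1.0) and Kcnj10 at -0.60 (limma adjusted p = 0.012). The 3 RMA columns labelled C57BL/6J matched BALB/cJ arrays best, with r of 0.90 to 0.96, against -0.16, 0.39 and 0.02 with their own arrays. The cause of other lost calls was not tested. RMA and MAS5 arrays have an SD of 2, while PDNN arrays have SDs of 0.633 to 0.801, so the sizes of their differences are not on 1 scale. With RMA scores 1 of 18 members passed between DBA/2J and C57BL/6J, the reversed Kcnj10, so none of the PDNN calls was kept. Kcnj9 1450712_at gave 0.58 there and did not pass (limma adjusted p = 0.25). RMA scores also called 3 members between the C57BL/6 substrains and 1 for the F1 hybrids. All of these comparisons use the RMA columns labelled C57BL/6J that matched BALB/cJ arrays, so RMA scoring and these columns cannot be told apart. MAS5 scores left 3 of 18 in the BXD panel, 2 between BALB and C57BL/6 strains and 3 of 50 correlated pairs. The CXB panel gave 1 of 35 pairs, 15 pairs not being pooled. Between BALB and C57BL/6 strains 3 of 8 members with a mean of 8 or more passed, and 3 of 18 with the astrocyte mean as a covariate. Quantile normalization called 1 member in the wild-derived strains, Kcnj6 1450294_a_at. The Kcnj9 pair difference was 1.98 with MAS5 scores (exact permutation p = 0.1) and 0.47 with RMA scores (exact permutation p = 0.3), against 0.94 PDNN units. Its RMA value rests on the same columns labelled C57BL/6J. Without the 4 sister lines 19 of 50 pairs passed, against 15.

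Each compared array was left out in turn for contrasts between named strains, and 20 arrays drawn at random for the others. Leaving out 1 array gave 2 to 3 called members between DBA/2J and C57BL/6J, 3 to 6 between BALB and C57BL/6 strains, 8 to 10 over the inbred strains, 5 in the BXD and 3 in the CXB panel, and leaving out 1 strain gave 0 to 2 for the wild-derived strains. It gave 0 for the substrains, the F1 hybrids, the reciprocal hybrids, sex, sex by panel, age and BXD round. Calls over all 45037 probe sets moved in the same refits. They were 1424 to 3379 between DBA/2J and C57BL/6J and 1199 to 2782 between BALB and C57BL/6 strains. They were 17941 to 21057 over the inbred strains, 3050 to 3210 in the BXD and 1487 to 2265 in the CXB panel. For the wild-derived strains they were 245 to 4160. Kcnj9 1428602_at lost its parental call without DBA/2J replicate 1 (-0.25, limma adjusted p = 0.14). No RMA value was had for BALB against C57BL/6 strains, because the RMA table used here lacks BALB/cJ. No paired analysis was possible because the numbers in the labels (H1, H2 and so on) repeat within many strains and so pair no arrays between strains, and batch was already a term of the fit.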
